A study of Mus with 51 samples.

Results

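The earliest sampled response of CD4 T cells to their agonist was read from 6 of the 51 libraries of the series, 3 of MCC CD69-hi cells and 3 of NP cells, all collected at 1 h. Libraries entered by their labelled source alone. The T cells came from lymph nodes of 5C.C7 mice on the B10.A background. This strain lacks Rag2 and carries a transgenic T cell receptor (TCR) for a moth cytochrome c peptide, MCC, which is the agonist. NP cells were kept without peptide, and neither of these groups received GP, the self-peptide that other groups of the series received. The Rag2 deletion and the transgenic receptor are common to all groups, so the T cells are of a single specificity and their host makes no mature B cells of its own. MCC cells had been sorted for high surface CD69, and the values therefore describe the cells that reached that gate, not the average of the culture. The labels do not say that the replicates came from separate mice. The p-values rest on the spread between libraries of the same group, estimated over all 51 libraries, and that spread may be technical. Which cells presented the peptide is not given in the sources used here.

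When a peptide bound to MHC class II engages the TCR of a CD4 T cell, the kinases Lck and Zap70 phosphorylate the adaptors Lat and Slp76, and calcium, Ras-ERK and protein kinase C signals follow. These act on transcription factors that are already present, among them NFAT, serum response factor and NF-kB, and the genes switched on first, without new protein synthesis, are called immediate early genes. Many of their products are themselves transcription factors or inhibitors that feed back on the same signals. A resting naive T cell instead expresses genes for circulation through lymph nodes and for survival on IL-7.

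The MCC CD69-hi libraries held 2530219, 852129 and 3346959 counts, fewer than each of the NP libraries with 6953485, 5436653 and 4686382. Values below are CPM, counts scaled to a common library size with TMM factors, in the order of libraries 1, 2 and 3, and differences are log2 fold changes ± SE. The SE is the size of the log2 fold change divided by the square root of its F statistic. Rag2 itself averaged 0 CPM in MCC CD69-hi and 0.799 in NP. Markers of B cells and of antigen-presenting cells were higher in MCC CD69-hi. The summed level of 20 B cell genes was 4892, 3088 and 4003 unscaled CPM against 820, 613 and 655 in NP, and 18 of 20 were called higher, where the share among all genes was 12.4%. Cd79a, of the B cell receptor, was at 266, 174 and 232 CPM against 47.6, 32.6 and 27.2. With the B cell sum as a covariate its log2 change was -0.088. Cd79a is part of that sum, so a small change there was largely set in advance. All 13 genes of MHC class II presentation were called higher, with sums of 3373 to 6289 against 409 to 698 unscaled CPM. Of 24 tested myeloid and dendritic genes 11 were called higher (sums 275 to 451 against 68.1 to 107 over 26 genes), and Ly6g was at 0 in all 6 libraries. The sum over 20 T cell genes was 15109 to 18298 unscaled CPM in MCC CD69-hi and 18733 to 21148 in NP. NK and CD8 genes, with Gzmk at 0 in all 6 libraries, summed to 34.4 to 70.4 against 56.3 to 65.4, and stromal, endothelial and erythroid genes to 144 to 510 against 306 to 323. This last sum mixes opposite directions. Of its 16 tested genes Cdh5, Epcam and Vcam1 were called higher, Pecam1 (853 counts against 4517) lower and 12 neither way. Hba-a1 held 600 counts, from 2 MCC CD69-hi libraries, against 227 in NP. The other haemoglobin genes also had more counts in MCC CD69-hi, despite its lower totals. Because markers of other cells moved with the groups, each result was also computed with the summed B cell level of a library as a covariate, the B-cell covariate below. Their part in the results was not tested in another way. In libraries from many cells, fewer cells of a type and less RNA per cell cannot be told apart.

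**Figure D1:**
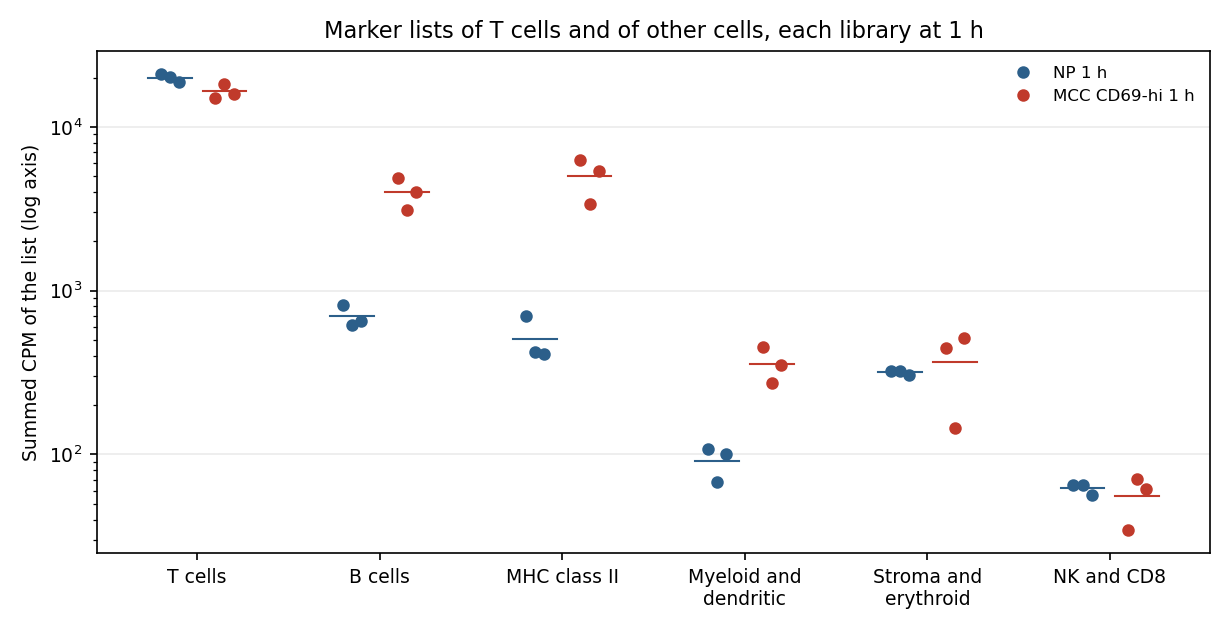
Summed CPM (log axis, unscaled) of 6 marker lists, for T, B, NK with CD8, and myeloid cells, for antigen presentation on MHC class II, and for stroma, in each library at 1 h; horizontal lines are means over 3 libraries. B cell sums of MCC CD69-hi lie between 3088 and 4892 and those of NP between 613 and 820, while the T cell sums lie between 15109 and 18298 and between 18733 and 21148.

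Of 17211 genes tested, 2131 were called higher in MCC CD69-hi than in NP (12.4%) and 2922 lower (17.0%) at a false discovery rate of 0.05, and these shares are the background against which the gene lists below are read. Changes of over 2-fold were called upward in 1585 genes (9.21%) and downward in 1374 (7.98%). The libraries of both groups did not overlap in 36.9% of genes. The split between directions depended on the scaling. Size factors by relative log expression (RLE) raised the log2 fold change of a gene by a median of 0.14. They called 2555 higher and 2127 lower, so that 54.6% of calls were upward against 42.2% with TMM. Adding the B-cell covariate left 989 higher and 1554 lower. The comparison of MCC+GP CD69-hi with GP at 1 h uses 6 other libraries, and it called 33.8% of genes, 13.7% higher and 20.1% lower. It called 1281 of the same genes higher, which is 60.1% of those called here and 54.4% of its own, and 2195 lower, 75.1% and 63.5%.

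**Figure D2:**
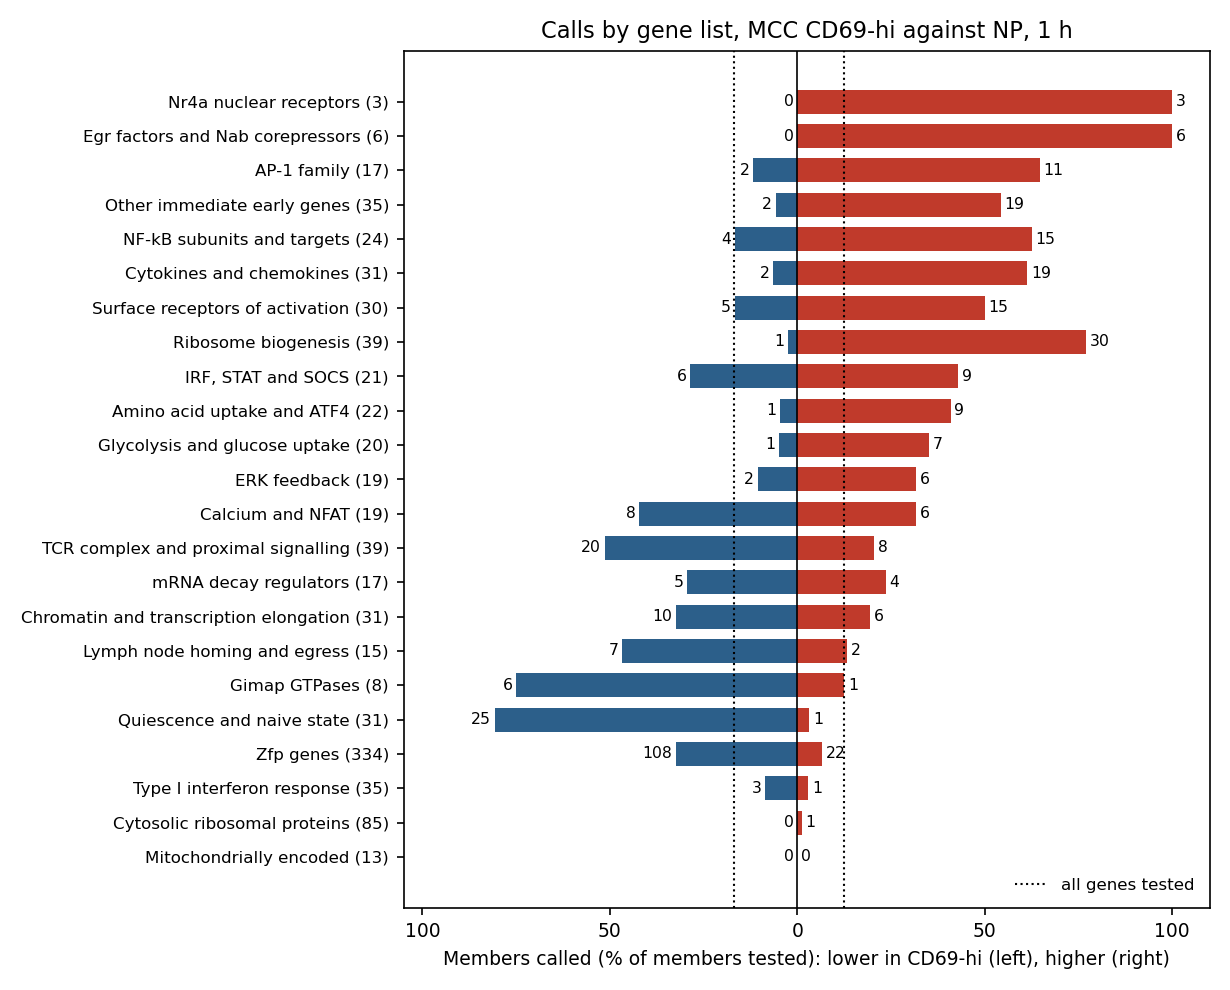
Share of the tested members of each gene list (number tested in brackets) called higher (right) or lower (left) in MCC CD69-hi than in NP at 1 h, as a percentage, with the number of members beside each bar. Dotted lines mark the 12.4% and 17.0% of all genes called; the Nr4a, Egr and Nab lists reach 100% upward, and the quiescence list has 25 of 31 members downward.

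The 3 Nr4a genes and the 4 Egr genes, which encode orphan nuclear receptors and zinc finger transcription factors of the immediate early class, were all far above NP. Both Nab genes, for corepressors that bind Egr proteins, rose with them, so all 9 tested members of the 2 lists were called higher. The Egr and Nab list had a median log2 fold change of 5.56 and the Nr4a list one of 4.40, beside a median of -0.05 over all genes tested. Nr4a1, for the receptor Nur77 that is widely used as a reporter of TCR signals, stood at 7057, 10534 and 11133 CPM in MCC CD69-hi and at 397, 653 and 308 in NP. The lowest MCC CD69-hi library was thus well above the highest NP library (4.40 ± 0.53, adjusted p = 7.02e-08). Nr4a3 was at 8297, 8627 and 9534 CPM against 614, 806 and 547, and Nr4a2 at 2343, 2999 and 3663 against 68.1, 99.6 and 87.2. Their changes were 3.75 ± 0.31 and 5.14 ± 0.40. On a scale per gene length, the deposited TPM table, Nr4a1 held rank 12 and Nr4a3 rank 23 among nuclear-encoded genes in the mean of MCC CD69-hi, compared with ranks 581 and 519 in NP.

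Egr3 had the largest fold change of the Egr family, from 12.6, 24.4 and 12.6 CPM in NP to 1307, 1790.2 and 2245 in MCC CD69-hi (6.76 ± 0.53, adjusted p = 5.30e-12). For Egr1 the libraries read 2729, 3979 and 5203 CPM against 105, 63.6 and 63.6 (5.67 ± 0.88), and for Egr2 675, 1097 and 1118 against 18.6, 35.0 and 11.6 (5.47 ± 0.55). In each of the 3 genes library 1 was the lowest of the MCC CD69-hi libraries, and no library overlapped with NP. Egr4 rested on few reads, 53 counts over 3 MCC CD69-hi libraries and 2 over NP. Nab2 rose from 30.0, 34.2 and 22.5 to 293, 314 and 368 CPM (3.49 ± 0.35, adjusted p = 9.22e-10), and Nab1 from 182, 153 and 138 to 388, 353 and 389.9 (1.26 ± 0.16, adjusted p = 8.86e-09). The calls of these genes held in all 14 alternative analyses, except that Egr4 was tested in, and held in, 12 of them.

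**Figure D3:**
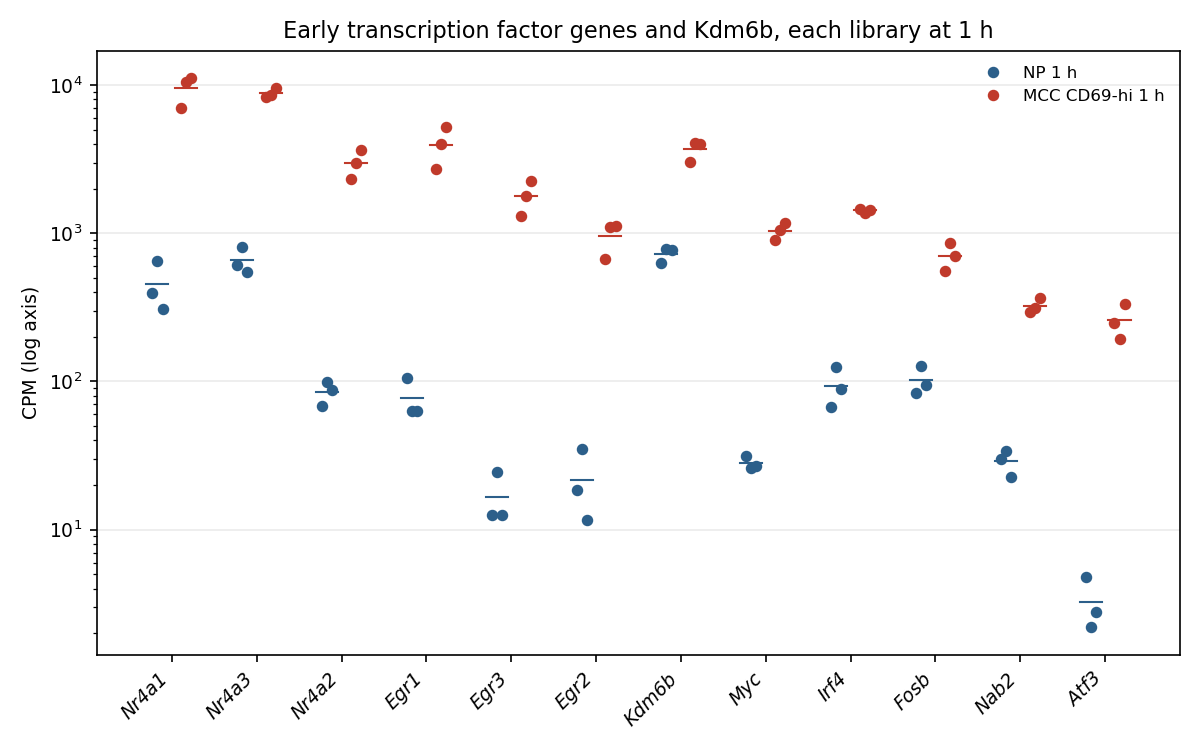
CPM (log axis) of 11 early transcription factor genes and Kdm6b, a histone demethylase gene, in each library at 1 h; horizontal lines are means of 3 libraries. In each of the 12 genes the 3 MCC CD69-hi libraries lie above the 3 NP libraries, for Nr4a1 at 7057 to 11133 against 308 to 653.

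The AP-1 family did not move as a block. Of 17 tested members 11 rose and 2 fell, but the best known pair, Fos and Jun, stood apart from the members with the largest changes. Atf3, a stress-inducible repressor, went from 4.76, 2.2 and 2.79 CPM to 248, 192 and 334 (6.27 ± 0.43, adjusted p = 5.74e-14). Fosb was at 559, 864 and 700.1 CPM against 83.0, 128 and 94.1 (2.80 ± 0.47, adjusted p = 1.80e-05), and Fosl1 at 17.3, 23.3 and 27.2 against 1.23, 1.60 and 1.5 (3.96 ± 0.38). Fosl2, already at 1146, 1120.0 and 1056 CPM in NP, rose to 2079.9, 2385 and 2736 (1.12 ± 0.18). Fos itself was at 176, 196 and 182 CPM against 92.2, 56.0 and 32.6, without overlap, and its adjusted p of 0.045 was lost in 8 of 14 alternatives. Jun held 96.9, 43.1 and 105 CPM against 353, 236 and 147 and did not pass the test (-1.52 ± 0.63, adjusted p = 0.066), although 3 of 14 alternatives called it lower, among them DESeq2 (adjusted p = 0.043). Junb overlapped between groups, with 1020.5, 1458 and 1863 CPM against 1183, 1044 and 884 (0.48 ± 0.41, adjusted p = 0.41). With the end number of the library titles as a block, called the replicate block below, its adjusted p was 0.0083. Among the small Maf and Bach genes, Maff (1.28 ± 0.36), Mafg (1.02 ± 0.18) and Bach1 (1.13 ± 0.16) rose. With the B-cell covariate 7 members rose and 1 fell.

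Of 35 other immediate early genes 19 rose and 2 fell. Gadd45b, a stress-response gene, rose from 31.8, 39.2 and 30.9 CPM to 439, 568 and 639.8 (4.01 ± 0.35, adjusted p = 5.27e-11). Bhlhe40, a transcription factor gene needed for cytokine production by T helper cells, read 213, 193 and 174 against 16.6, 10 and 10.9 CPM (3.93 ± 0.41). In both genes each MCC CD69-hi library was more than 10 times the highest NP library. The kinase gene Plk3 was at 396, 675 and 632 CPM against 53.8, 55.4 and 42.2 (3.48 ± 0.43), and Csrnp1 at 622, 852 and 767 against 136, 144 and 77.4 (2.64 ± 0.27). Kdm6b, which encodes a demethylase of the repressive mark on histone H3 lysine 27, was among the 10 genes with the largest gain in CPM. Its libraries held 3043, 4069.8 and 4027 CPM against 634, 782 and 766 (2.35 ± 0.26, adjusted p = 3.44e-09). Srf, for serum response factor, rose by 1.85 ± 0.22, and its target gene Ier2 by 1.65 ± 0.30. Klf10, an inducible Krüppel-like factor, rose from 17.4, 12.8 and 10.1 to 119, 118 and 90.6 CPM, with a change of 3.0 on the log2 scale. Klf6 of the same family went the other way, from 1098, 882 and 725 CPM to 267, 142 and 169, and fell by 2.21 ± 0.28 (adjusted p = 7.00e-08). Each of these calls held in all 14 alternatives.

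Genes of the NF-kB system rose in part. Of 24 tested members 15 rose and 4 fell. Among the subunits, Rel was at 1738, 1043 and 1420.0 CPM against 345, 295 and 333 (2.11 ± 0.19, adjusted p = 1.01e-13), Nfkb1 at 2647, 2626 and 1861 against 759, 624 and 556 (1.88 ± 0.23), and Nfkb2 at 896, 946 and 973 against 519.6, 476 and 478 (0.93 ± 0.16). No library of these 3 genes overlapped between the groups. Relb, at 346, 308 and 400.5 against 353, 241 and 279 CPM, did overlap (0.28 ± 0.19, adjusted p = 0.27, blocked 0.0058), and 4 of 14 alternatives called it higher. Inhibitors of NF-kB split in a similar way. Nfkbid, for an atypical nuclear IkB, rose from 190.0, 242 and 160.1 CPM to 1567, 2214 and 2023 (3.29 ± 0.28, adjusted p = 6.03e-12), and Nfkbiz (1.64 ± 0.25) and Nfkbie (1.64 ± 0.18) rose as well. Nfkbia, the classical feedback inhibitor, held 575, 585 and 492 CPM against 512, 478 and 354 and did not pass (0.29 ± 0.21, adjusted p = 0.31, blocked 0.0028).

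The ubiquitin editor Tnfaip3, also known as A20, was lower in all 3 MCC CD69-hi libraries, at 767, 441 and 587 CPM against 2210.0, 1795 and 1401. It fell by 1.58 ± 0.27 (adjusted p = 1.64e-05), and its partner gene Tnip1 fell by 0.89 ± 0.16. Targets on the cell surface and in survival rose: Icam1 from 31.2, 37.4 and 30.6 to 268, 155 and 181 CPM (2.62 ± 0.33), and Cd83 from 26.0, 16.0 and 19.7 to 671, 395 and 656 (4.80 ± 0.51). Bcl2a1d, a member of a family of near-identical antiapoptotic genes among which reads may be split, stood at 76.8, 95.6 and 56.6 CPM against 2.46, 3.20 and 2.57. Each of the Tnfaip3, Tnip1, Icam1, Cd83 and Bcl2a1d calls held in all 14 alternatives. Cd83 and Icam1 are also expressed by antigen-presenting cells, whose markers were higher in MCC CD69-hi as given above. With the B-cell covariate Cd83 remained 2.64 higher (adjusted p = 3.71e-04) and Icam1 1.68 higher (adjusted p = 0.011).

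Among feedback regulators of the ERK pathway 6 of 19 rose and 2 fell. Spry1, for an inhibitor of Ras signalling, went from 1.69, 1.00 and 1.93 CPM in NP to 83.5, 51.3 and 95.9 (5.67 ± 0.54, adjusted p = 3.12e-10). The phosphatase gene Dusp2 rose from 126, 125 and 72.9 to 829.9, 1277 and 1207 CPM (3.35 ± 0.27), Dusp4 from 12.3, 10.8 and 9.86 to 98.4, 68.8 and 87.2 (2.96 ± 0.27), and Dusp6 by 1.65 ± 0.36. Dusp5, at 675, 758 and 648 CPM against 471, 378 and 284, rose by less (0.87 ± 0.21, adjusted p = 0.0012). Dusp10, whose product acts on the stress kinases JNK and p38 more than on ERK, was one of the 2 members that fell, with Spred2 (a call lost with the B-cell covariate and after thinning), and stood at 157, 72.3 and 103 CPM against 1111, 1012 and 818. All 3 MCC CD69-hi libraries were far below the NP libraries, and it fell by 3.11 ± 0.32 (adjusted p = 1.03e-09).

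In the calcium and NFAT list 6 of 19 members rose and 8 fell, and its 2 main NFAT genes moved in opposite directions. Nfatc1, the inducible family member, was at 750.4, 596 and 704 CPM against 197, 175 and 217 (1.80 ± 0.17, adjusted p = 1.90e-12). Nfatc2 was at 25.6, 44.3 and 42.1 against 87.3, 91.4 and 108 and fell by 1.39 ± 0.24 (adjusted p = 6.40e-06). For the store-operated calcium channel, the pore gene Orai1 rose (0.96 ± 0.21) and the sensor gene Stim1 fell by 0.73 ± 0.16. Cd40lg, the NFAT target whose product gives help to B cells, rose from 39.2, 61.2 and 40.3 to 322, 700.4 and 715 CPM (3.62 ± 0.39, adjusted p = 5.27e-09), with library 1 the lowest of the 3. The number that fell was 4 with the B-cell covariate, with thinned counts and with only the 2 groups in the fit, and Nfatc2, Stim1 and Camk4 fell in each of these.

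Transcripts of the TCR machinery more often fell than rose. Of 39 tested members 20 fell and 8 rose, with a median of -0.52. The Tec family kinase gene Txk fell from 372, 373 and 397 to 127, 128 and 126 CPM, by 1.59 ± 0.18. Prkcq, for the protein kinase C isoform of the T cell synapse, read 147, 148 and 151 against 358, 392 and 379 CPM and fell by 1.34 ± 0.20 (adjusted p = 7.70e-07). Cd247, for the zeta chain, fell by 1.14 ± 0.16, and Cd4 and Cd3e fell by 0.98 ± 0.19 and 0.80 ± 0.17, the last 2 without passing under the B-cell covariate (adjusted p = 0.1 and 0.72). Negative regulators went both ways: Ubash3a and Dgka fell, while Ptpn22, Ptpn6 and Sla, given below, rose. Ubash3a, for a phosphatase that restrains TCR signals, was at 51.6, 59.4 and 24.4 CPM against 254, 265 and 219 and fell by 2.53 ± 0.29. Dgka, for a kinase that removes diacylglycerol, was at 413, 494 and 441 against 1173, 1247 and 1332 and fell by 1.48 ± 0.16.

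Several adaptors and regulators of the same pathway rose. Lcp2, which encodes Slp76, was at 972, 1105 and 1075 CPM against 131, 152 and 141 (2.89 ± 0.20, adjusted p = 1.86e-17), with narrow spread in both groups. Zap70 rose from 254, 286 and 267 to 431, 597 and 511 CPM (0.93 ± 0.26, adjusted p = 0.0055). Malt1 (1.36 ± 0.20) and Bcl10 (0.62 ± 0.15), which act together between protein kinase C and NF-kB, rose. The phosphatase genes Ptpn22 (1.19 ± 0.17) and Ptpn6 (1.18 ± 0.15) and the adaptor gene Sla (1.04 ± 0.16) rose. Lck held 602, 782 and 679.7 CPM against 615, 593 and 520.1 and did not pass the test (adjusted p = 0.2, blocked 0.011), but it was called higher in 6 of 14 alternatives. With the B-cell covariate 10 members of the list rose and 9 fell.

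Messages for secreted and membrane-bound cytokines had already risen at 1 h, several of them from levels near 0. Of 31 tested members 19 rose and 2 fell. The median change was 3.35, or 2.70 with the 10 members absent from a whole group set to their bound of 3 counts. Tnf and Lta lie beside Ltb in the tumour necrosis factor cluster on chromosome 17 (GRCm38 Tnf 35199367 to 35202007, Lta 35203165 to 35205578, Ltb 35194507 to 35196305), and the 3 genes did not move together. Tnf rose from 13.2, 17.8 and 11.6 to 179, 448 and 531 CPM (4.76 ± 0.52, adjusted p = 7.51e-09), with library 1 at less than any other MCC CD69-hi library. Lta rose from 4.0, 5.40 and 5.57 to 41.7, 80.4 and 39.6 (3.35 ± 0.39, adjusted p = 1.12e-08). Ltb was at 177, 252 and 149 CPM against 287, 334 and 275 and fell by 0.66 ± 0.21 (adjusted p = 0.016), a call that 10 of 14 alternatives lost.

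Lif, for a cytokine of the IL-6 family, rose from 0.922, 2.00 and 0.214 to 32.3, 114 and 74.5 CPM (6.02 ± 0.73, adjusted p = 6.99e-08). The chemokine genes Ccl3 and Ccl4 were at 35.4, 8.16 and 48.6 and 49.2, 6.99 and 55.7 CPM in MCC CD69-hi, low in library 2 for both, and did not exceed 1 CPM in NP. Their RefSeq models overlap on chromosome 11 (83647843 to 83649378 and 83648624 to 83664683), and whether counting used strand is not given in the sources used here, so their reads cannot be fully told apart. The same holds for Nab2 with Stat6 and for Txnip and Lcp2, each of which overlaps another RefSeq gene model. Tnfsf11, for RANK ligand, rose from 68.4, 42.2 and 36.6 to 376, 273 and 308 CPM (2.70 ± 0.35), and Tnfsf14, for LIGHT, from 0, 0.200 and 0.429 to 12.2, 5.83 and 14.5. Tgfb1 rose from 156, 152 and 124 to 331, 437 and 386 (1.41 ± 0.16), while Il16, for a chemoattractant made by resting T cells, fell by 2.06 ± 0.19 to 61.4, 35.0 and 44.2 CPM. Il2 was still rare, with 2.76, 15.2 and 7.73 CPM and 45 counts in all against 4 in NP, and its rise did not pass after thinning to one depth (adjusted p = 0.19). Areg was absent from NP and at least 47.1-fold higher over 3 counts, from 58 counts in libraries 1 and 3, and its call was also lost after thinning (adjusted p = 0.066). The number of members that rose was 11 with the B-cell covariate and 12 with thinned counts or with the replicate block.

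MCC CD69-hi cells were gated on CD69 protein, so their Cd69 RNA is not independent of the selection, and its difference from NP cannot check the sort. Cd69 was at 1181, 1935 and 1923 CPM in MCC CD69-hi against 329.5, 209 and 121 in NP, without overlap (2.93 ± 0.47, adjusted p = 1.08e-05, and 0.067 with the replicate block). Among surface receptors of activation 15 of 30 rose and 5 fell. Sema7a, for a membrane-anchored semaphorin, rose from 7.84, 7.80 and 6.86 to 549, 617 and 581 CPM (6.27 ± 0.37), and Slamf1, for a homophilic costimulator, from 12.9, 22.6 and 22.3 to 372, 399.8 and 389 (4.34 ± 0.27). No library of these 2 genes overlapped between the groups. Pdcd1, for the inhibitory receptor PD-1, went from 0.922, 1.40 and 1.29 CPM to 52.8, 69.9 and 68.3 (5.71 ± 0.53, adjusted p = 1.67e-10). Its ligand gene Cd274 rose from 65.2, 148 and 76.9 to 493, 684 and 623 CPM (2.63 ± 0.35). The IL-2 receptor chain Il2ra was at 265, 299.5 and 220.5 CPM against 44.4, 21.8 and 27.4 (3.05 ± 0.37), Tnfrsf1b at 583, 569 and 594 against 229.8, 221 and 197 (1.43 ± 0.25), and Tfrc, for the transferrin receptor, rose by 1.51 ± 0.28.

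Cd28, for a costimulatory receptor of the resting T cell, was at 189.8, 142 and 216 CPM against 492, 586 and 484 and fell by 1.49 ± 0.21 (adjusted p = 9.90e-08). Icos was at 64.2, 82.7 and 75.8 against 139, 134 and 128 and fell by 0.86 ± 0.19 (adjusted p = 3.85e-04), a call not kept with the B-cell covariate (0.68) or after thinning (0.052). Tigit, for an inhibitory receptor, fell by 2.09 ± 0.50 from 19.8, 17.0 and 14.4 CPM. Cd44 rose by 1.86 ± 0.40, with an adjusted p of 1 once the B-cell covariate was added.

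Genes for trafficking and for the resting state fell within the hour. Of 31 tested members of the quiescence and naive list 25 fell and 1 rose, with a median of -1.12. In the homing and egress list 7 of 15 fell and 2 rose. S1pr1, whose product leads T cells out of the lymph node, was at 213, 76.9 and 149 CPM against 1438, 1328 and 1008 and fell by 3.07 ± 0.22 (adjusted p = 1.30e-16). S1pr4 was at 17.7, 19.8 and 13.9 against 155, 189 and 154 and fell by 3.33 ± 0.22. The lymph node entry gene Ccr7 fell by less, by 1.45 ± 0.24 from 1146, 1004 and 843 CPM. Cxcr5, for the receptor that guides cells towards B cell follicles, rose from 17.4, 13.8 and 10.5 to 193, 145 and 224 CPM (3.75 ± 0.50). B cells also express Cxcr5, and with the B-cell covariate it was 1.09 higher (adjusted p = 0.022).

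Klf2, the factor that maintains S1pr1, was at 204, 92.1 and 208 CPM against 1217, 1087 and 1028 and fell by 2.69 ± 0.32 (adjusted p = 2.35e-08). Il7r was at 84.3, 52.4 and 42.1 against 633, 463 and 522 and fell by 3.17 ± 0.34. Txnip, for an inhibitor of glucose uptake, was at 44.1, 37.3 and 41.7 CPM against 273, 340.1 and 339 and fell by 2.93 ± 0.22. The groups were separated without overlap in each of these 3 genes. Factors of the naive T cell programme fell as well, Tcf7 by 1.61 ± 0.19 to 368, 451 and 478 CPM, Lef1 by 2.14 ± 0.17 to 78.7, 97.9 and 101 and Ets1 by 2.08 ± 0.18 to 626, 389 and 557. Tsc22d3, a glucocorticoid-induced gene also known as Gilz, fell by 2.56 ± 0.22. Tob2, for an antiproliferative protein, was the member that rose, from 304, 360.5 and 301 to 595, 1002 and 873 CPM (1.35 ± 0.22, adjusted p = 5.33e-06).

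**Figure D4:**
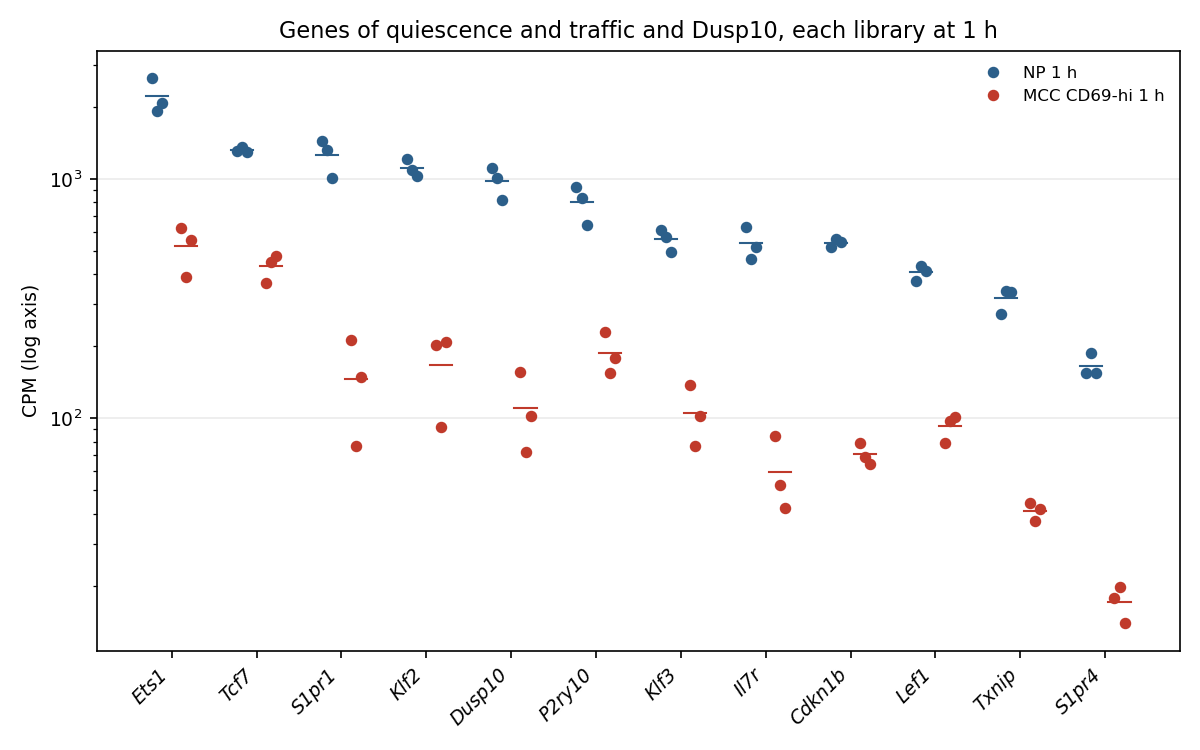
CPM (log axis) of 11 genes of quiescence and traffic and of Dusp10 in each library at 1 h; horizontal lines are means of 3 libraries. In all 12 the 3 NP libraries lie above the 3 MCC CD69-hi libraries, for S1pr1 at 1008 to 1438 against 76.9 to 213.

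The Gimap genes, a cluster of GTPase genes on chromosome 6 (GRCm38 48647186 to 48770851, from Gimap8 to Gimap3) that support lymphocyte survival, fell by smaller amounts. Of 8 members 6 fell and 1 rose. Gimap3 was at 496, 572 and 622 CPM against 1409.7, 1438 and 1750.3 and fell by 1.44 ± 0.20, Gimap6 fell by 0.74 ± 0.16 and Gimap8 by 0.75 ± 0.16. Gimap5, between Gimap1 and Gimap3 in the cluster, was at 86.6, 88.6 and 105 CPM against 66.1, 54.2 and 66.0 and rose (0.59 ± 0.15, adjusted p = 0.0021). That rise did not pass with the B-cell covariate (0.19) or after thinning (0.06), and with the covariate the falls of Gimap1, Gimap4 and Gimap9 did not pass either.

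The genes of p27 and p21, inhibitors of cyclin-dependent kinases, changed in opposite directions. Cdkn1b, for p27, was at 78.7, 68.8 and 64.6 CPM against 519.8, 560.2 and 547 and fell by 2.94 ± 0.18 (adjusted p = 8.10e-19). Cdkn1a, for p21, rose from 7.22, 5.00 and 7.07 to 94.5, 142 and 71.7 CPM (3.93 ± 0.40, adjusted p = 9.27e-10). Among cell cycle entry genes 8 of 23 rose and 4 fell, with E2f3 (1.97 ± 0.30) up and the pocket protein genes Rbl1 and Rbl2 down by 0.95 ± 0.22 and 1.08 ± 0.21. Mitotic genes were scarce: 9 of 20 were called higher, 1 of them with the B-cell covariate, and Mki67 was at 29.5, 15.2 and 38.0 CPM against 3.84, 4.80 and 9.86 (adjusted p = 0.0012, 0.48 with the covariate). In the apoptosis list 5 of 22 rose and 4 fell. Bcl2l1, for the survival protein Bcl-xL, rose from 10.8, 8.80 and 9.43 to 47.2, 31.5 and 41.4 CPM (2.09 ± 0.28), and Tnfrsf10b, for the mouse TRAIL receptor, fell by 2.86 ± 0.32 from 48.3, 45.2 and 49.5 CPM.

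Myc and 3 of its antagonists moved in opposite directions. Myc was at 895, 1051 and 1180.4 CPM in MCC CD69-hi and 31.2, 26.2 and 26.8 in NP (5.21 ± 0.27, adjusted p = 6.18e-19). Mxd1, Mxd4 and Mxi1, whose products compete with Myc for its partner protein, fell by 1.78 ± 0.26, 1.74 ± 0.20 and 1.63 ± 0.35, and each call held in all 14 alternatives. Mxd4 was at 66.5, 38.5 and 68.7 CPM against 224, 175 and 205. In the network of 12 tested genes 1 rose and 5 fell. The other falls were of Max, the partner of Myc (-0.58, adjusted p = 0.0033, blocked 0.085), and of the repressor gene Mnt (-0.52, adjusted p = 0.012, blocked 0.092). The Max call was lost in 5 of 14 alternatives and the Mnt call in 10, and 6 members had no call.

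Ribosome biogenesis genes, many of them Myc targets, had begun to rise by small amounts: 30 of 39 were called higher and 1 lower, with a median of 0.68. Gnl3, for nucleostemin, was at 326, 303 and 286 CPM against 97.3, 106 and 94.9 (1.62 ± 0.20, adjusted p = 2.77e-09), and Nolc1 at 382, 281 and 398 against 134, 133 and 109 (1.51 ± 0.19). Ncl, for nucleolin, rose from 902, 979.8 and 678 to 1721, 1582 and 1337 CPM (0.86 ± 0.18), and Fbl, for fibrillarin, by 1.17 ± 0.17. With the B-cell covariate 18 members rose. Cytosolic ribosomal protein genes, by contrast, gave few calls, with 1 of 85 called higher, 3 at an unadjusted p under 0.05 and 3 by DESeq2, although 16 were called higher with the replicate block. Of 13 mitochondrially encoded genes edgeR called 0, as did DESeq2, and 0 had an unadjusted p under 0.05. The block called 6 of them higher.

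Nutrient transport changed at selected genes. In the list of amino acid uptake and ATF4 targets 9 of 22 rose and 1 fell. The cationic amino acid transporter Slc7a1 was at 812, 627 and 664 CPM against 232, 289.9 and 280.3 (1.39 ± 0.19) and Slc38a1 at 718, 754 and 803 against 233, 229 and 251 (1.67 ± 0.15). Slc3a2, the heavy chain of the leucine transporter, rose by 0.76 ± 0.19, but its light chain Slc7a5 held 205, 188 and 221 CPM against 159, 239 and 168 (0.12 ± 0.29, adjusted p = 0.81). With the B-cell covariate Slc7a5 was called 1.31 higher (adjusted p = 0.012). Of 20 glycolysis genes 7 rose and 1 fell, among them Slc2a1, for the glucose transporter Glut1 (0.88 ± 0.17), Pfkfb3 (1.59 ± 0.21) and Ldha (0.97 ± 0.17). Chaperone genes gave 2 rises and 1 fall in 19, and 11 rises with the replicate block. Hspa5, for the chaperone BiP of the endoplasmic reticulum, rose from 1079, 1090.0 and 773 to 1744, 2244 and 1787 CPM (0.97 ± 0.24).

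The 3 tristetraprolin genes, whose products destabilise AU-rich mRNAs such as Tnf, divided. Zfp36 was at 381, 551 and 875 CPM against 211, 204 and 151 (1.68 ± 0.31) and Zfp36l1 at 319, 445 and 549 against 109.9, 138 and 119 (1.84 ± 0.27). Zfp36l2 was at 288, 255 and 203 against 1119, 1001 and 993 and fell by 2.06 ± 0.23 (adjusted p = 6.43e-10). Over 17 decay regulators 4 rose and 5 fell, with the deadenylase genes Cnot6 and Pan3 down by 1.25 ± 0.15 and 0.76 ± 0.15.

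Factors of cytokine signalling and T helper fate also moved in both directions. Irf4, which scales with TCR signal strength, was at 1455, 1381 and 1439.8 CPM against 67.5, 125 and 89.1 (3.93 ± 0.25, adjusted p = 1.54e-16), and Irf8, also a gene of B cells and dendritic cells, rose from 30.9, 29.6 and 21.6 to 356, 191 and 287 (3.35 ± 0.43; 1.55, adjusted p = 0.018, with the B-cell covariate). Stat5a and Stat5b, which transmit IL-2 and IL-7 signals, fell by 1.62 ± 0.17 and 1.97 ± 0.17, Stat5b from 1181, 1096 and 993 CPM to 309, 235 and 284. The STAT5 feedback genes Cish (2.88 ± 0.42) and Socs1 (2.57 ± 0.61) rose at the same time, while Socs3 fell by 1.81 ± 0.41 (adjusted p = 8.30e-04, 0.12 with the covariate). In this list 9 of 21 rose and 6 fell. Among 23 fate regulators 8 rose and 7 fell. Tbx21, the T helper 1 factor, reached 8.66, 12.8 and 13.0 CPM from 0.615, 0.400 and 0.429, and Gata3, the T helper 2 factor, fell by 2.05 ± 0.32 to 5.12, 9.32 and 6.49 CPM from 24.7, 30.4 and 25.1. Bcl6, of follicular helper cells, rose by 0.93 ± 0.21, and Maf and Rora fell by 2.01 ± 0.30 and 1.53 ± 0.24.

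Genes for chromatin and elongation factors gave 6 rises and 10 falls in 31. Apart from Kdm6b, the clearest changes were falls, of Arid5a, whose product stabilises cytokine mRNAs (215, 219 and 212 CPM against 772, 891 and 716, a fall by 1.88 ± 0.18), Hdac5 by 1.38 ± 0.14 and Ezh1 by 1.21 ± 0.17. The numbered Zfp symbols, mostly zinc finger repressors but with the Zfp36 genes among them, were lower as a group: 108 of 334 fell and 22 rose, with a median of -0.55 against -0.05 over all genes, or -0.48 with members absent from a group at their bound. The falls numbered 84 with RLE, 51 after thinning, 52 with only the 2 groups in the fit and 58 with the replicate block. Zfp874a was at 8.66, 0 and 8.35 CPM against 69.6, 91.8 and 73.5 and fell by 3.47 ± 0.27. Type I interferon response genes gave 1 rise and 3 falls in 35, and 4 and 11 with the replicate block.

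Ranked by fold change among genes at 20 CPM or more without overlap, the largest rises outside the families above were Plau, Mir155hg and Slamf7. Plau, for the urokinase plasminogen activator, was at 43.7, 1.17 and 66.5 CPM in MCC CD69-hi, with 1 count in all of NP, and library 2 held little of it. Mir155hg, the host transcript of miR-155, rose from 0.615, 0.600 and 1.71 to 57.9, 71.1 and 51.6 CPM (5.94 ± 0.51, adjusted p = 7.46e-12). Slamf7, a SLAM family receptor, rose from 2.92, 2.6 and 6.21 to 187, 181 and 231 (5.71 ± 0.37). The rule also listed the immunoglobulin genes Igkv4-74, Ighv1-4 and Ighg3, each from 1 library. Igkv4-74 was at 1.18, 233 and 2.47 CPM, Ighv1-4 at 66.5, 2.33 and 1.24 and Ighg3 at 5.91, 3.50 and 96.2. Each call was lost without its high library and with the B-cell covariate, under which Ighv1-4 changed sign (-0.23). Without replicate 2 Igkv4-74 had an adjusted p of 0.084, without replicate 1 Ighv1-4 had 0.12, and without replicate 3 Ighg3 had 0.085.

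On the falling side the same ranking named Zscan10, a zinc finger gene, at 2.76, 2.33 and 0.618 CPM against 41.3, 43.4 and 37.9, which fell by 4.58 ± 0.48. Fam101b was at 34.3, 21.0 and 19.2 CPM against 292, 293 and 243 and fell by 3.45 ± 0.25. Fbxo32, a ubiquitin ligase gene known as a Foxo target in muscle, was at 19.7, 2.33 and 9.28 against 136, 112 and 96.0 and fell by 3.25 ± 0.27. Ikzf4, for the Ikaros family member Eos, fell by 3.18 ± 0.39 from 33.0, 41.2 and 27.0 CPM, and Tbxa2r, for the thromboxane receptor, by 3.22 ± 0.40 from 33.0, 36.0 and 34.7. These 5 calls held in all 14 alternatives. By difference of CPM, Vps37b, for a subunit of an endosomal sorting complex, gave one of the largest falls, from 1892, 1931 and 1581 CPM to 316, 309 and 288 (a fall by 2.57 ± 0.18), and the kinase gene Wnk1 one of the largest rises, from 933, 1027 and 1052 to 2883, 2601 and 2628 (1.43 ± 0.17).

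The comparison of MCC+GP CD69-hi with GP gave another reading of the same genes in other libraries, in which self-peptide was present in both groups. Nr4a1 was 4.11 ± 0.53 higher there (adjusted p = 1.86e-07), Egr3 5.80 ± 0.51 and Myc 5.03 ± 0.27 higher, and Lcp2 2.79 ± 0.20 higher. Among genes that fell, the values were -3.40 ± 0.22 for S1pr1, -3.23 ± 0.19 for Cdkn1b, -2.96 ± 0.32 for Dusp10 and -1.72 ± 0.27 for Tnfaip3. Each of these 8 genes passed the test there in the direction found without GP. These libraries shared the marker and depth differences of the main comparison. B cell sums were 2790 to 5119 unscaled CPM in MCC+GP CD69-hi and 635 to 968 in GP. Totals were 930161 to 1105292 counts in MCC+GP CD69-hi and 4974395 to 5898008 in GP. Whether the size of the change differs with GP was not tested.

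The difference between MCC CD69-hi and NP was also set against the same difference at 6 h, which is drawn from 5 other libraries (3 and 2). A test of the change between times called 29.9% of genes, 13.0% with a larger (more positive) value at 1 h and 16.8% with a smaller one. All 39 ribosome biogenesis genes were smaller at 1 h, with a median log2 fold change of 0.68 at 1 h and 3.26 at 6 h, as were 18 of 22 amino acid uptake and ATF4 genes (0.46 and 3.31). Slc7a5, given above at 1 h, was at 971, 889.9 and 1095 CPM in MCC CD69-hi and 30.3 and 36.8 in NP at 6 h, a difference between times of -4.75 ± 0.48 (adjusted p = 4.92e-10). Il2ra (-4.26 ± 0.58), Cd5 (-3.43 ± 0.51), Tfrc (-3.05 ± 0.43) and Tnfsf11 (-3.09 ± 0.60) likewise had their smaller difference at 1 h. For Tnfsf11 this went with a lower NP level at 6 h, 4.12 and 5.10 CPM, while MCC CD69-hi was at 303, 262 and 198. Nr4a3 also had a smaller difference at 1 h (-2.49 ± 0.44), with an NP level of 31.8 and 36.8 CPM at 6 h. The MCC CD69-hi libraries held 2469, 2787 and 2540 CPM of Nr4a3 at 6 h, below the 1 h libraries. Of the quiescence list 20 of 31 members had a larger value at 1 h, which for genes below NP means a smaller fall, and 4 a smaller one. Its median went from -1.12 to -2.64. All 8 Gimap genes (-0.81 and -2.96) and 29 of 35 interferon genes (-0.37 and -2.67) also had the larger value at 1 h.

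Members of the early lists with a larger difference at 1 h than at 6 h were fewer. Fosb was 2.80 above NP at 1 h and -0.01 from it at 6 h, a difference of 2.81 ± 0.71 (adjusted p = 0.0024). For Zfp36 the values were 1.68 and -0.39 (2.07 ± 0.45), for Btg2 1.26 and -0.60 (1.86 ± 0.40), and for Nab2 3.49 and 1.75 (1.74 ± 0.49). Tnfaip3 was the other way round, -1.58 at 1 h and 0.50 at 6 h (-2.09 ± 0.41), with MCC CD69-hi libraries at 491, 374 and 493 CPM and NP libraries at 367 and 270.3 at 6 h, so that the NP level was the one that differed most from 1 h. Egr1 and Egr3 were also called, with differences of 4.55 ± 1.11 and 3.67 ± 0.71, but they rested on 1 library. The NP 6 h libraries held 432 and 7.04 CPM of Egr1, and without NP 6 h replicate 1 the difference was -0.29 (adjusted p = 0.94) for Egr1 and 1.78 (adjusted p = 0.27) for Egr3. The other genes named in these last 2 paragraphs kept their call in all 18 alternatives of that test.

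**Figure D5:**
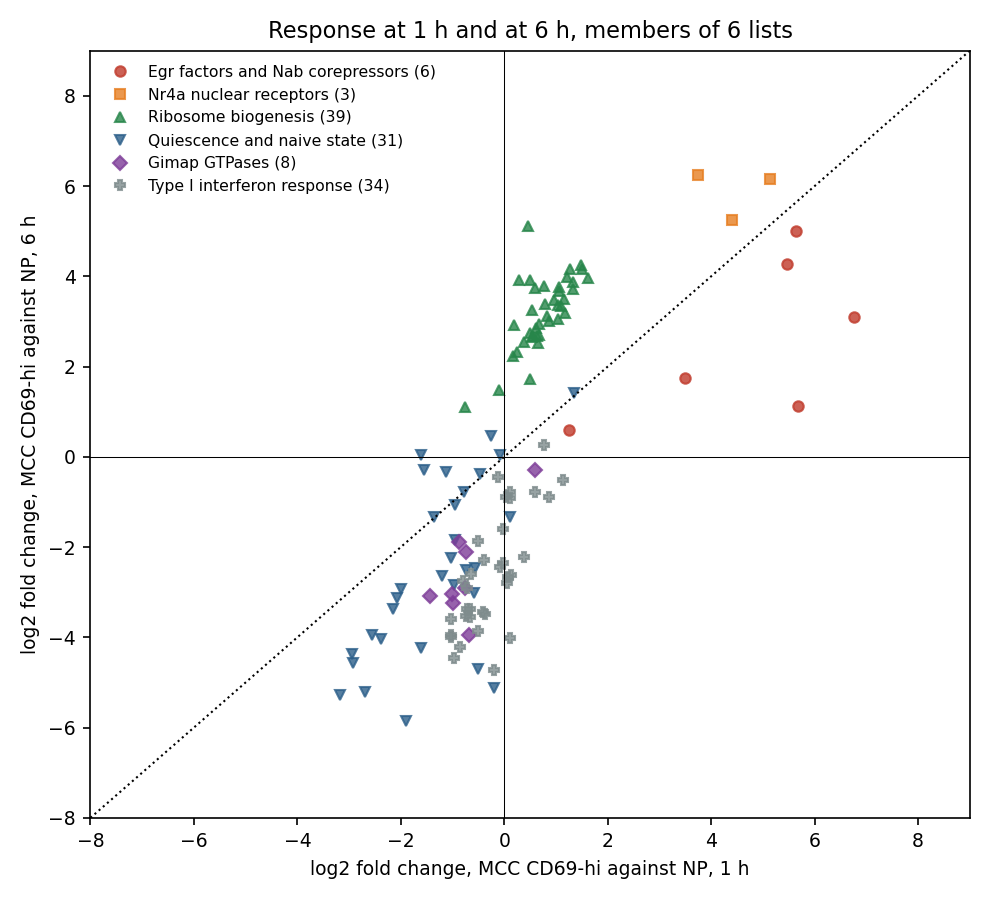
Log2 fold change of MCC CD69-hi against NP at 1 h (horizontal axis) and at 6 h (vertical axis), 1 point per gene, for 6 gene lists with the number of genes drawn. The dotted diagonal marks equal change. The interferon gene Ifi44, with 0 counts in MCC CD69-hi at 1 h, is not drawn. Ribosome biogenesis genes lie above the diagonal, and Gimap and most interferon and quiescence genes below it.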

How the data were processed

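RNA was extracted with RNAzol RT and poly(A) RNA was sequenced in pairs, per the labels' protocols. Per the submitters' processing notes, bcl2fastq 2.20, STAR 2.6.1c, HTSeq 0.9.1 and the mm10 build were used. The deposited tables hold whole-number counts per gene and TPM, and the TPM table served only for ranks per gene length because its columns sum to 9986 to 9996. Counts were tested in R 4.3.3 with edgeR 4.0.16 (TMM scaling, filterByExpr, robust quasi-likelihood test, 1 coefficient for each group over all 51 libraries, Benjamini-Hochberg adjustment), which left 17211 genes of 34923. All adjusted p-values in the text are from this test unless another setting is named. DESeq2 1.42.0 was an alternative. Some list members are not reported here by name. The scripts were first tested on simulated data. The members and lists were chosen with earlier results of these data known. Named genes were drawn from list members, the 15 largest log2 fold changes in each direction among genes called at 20 CPM or more without overlap, the 10 largest CPM differences, and the 8 largest time differences. Not every gene of these rankings is named. Libraries are numbered in sample order. The titles of both groups end in a letter followed by 1, 3 or 5. No label explains the letter or calls the number a replicate. Deviations of libraries with the same end number correlated across 8288 genes (0.22, 0.23 and 0.13), and those with different end numbers gave -0.27 to 0.018. Deviations from a mean of 3 libraries sum to 0, so the unmatched values are pushed down where the matched ones lie above 0. The numbers were taken to pair the libraries only as a hint from the data. A block by end number, the replicate block above, was run as an alternative. Alternatives also covered RLE size factors, no low-count filter, the compared groups or times alone, a B-cell RNA covariate, libraries thinned to one depth and each library left out.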

Additional observations from a re-analysis of the deposited data

Results flagged for a closer look

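A test of the difference between 1 h and 6 h in the log2 fold change of MCC CD69-hi against NP passed for the 23 genes given here. They were selected from the genes named above and not by rank, and the same test called 29.9% of all genes. Values here are the difference, 1 h minus 6 h, with its SE. Among early factors and their partners it was 4.55 ± 1.11 for Egr1, 3.67 ± 0.71 for Egr3, 1.74 ± 0.49 for Nab2, 2.81 ± 0.71 for Fosb and 1.86 ± 0.40 for Btg2. For Zfp36, whose product promotes mRNA decay, it was 2.07 ± 0.45. The Egr1 and Egr3 values rest on NP 6 h replicate 1, without which they were -0.29 and 1.78 and did not pass, and the Egr1 call was also not kept in a fit of those 4 groups alone.

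Of genes with a smaller difference at 1 h, Nr4a3 gave -2.49 ± 0.44, Il2ra -4.26 ± 0.58, Cd5 -3.43 ± 0.51, Tfrc -3.05 ± 0.43 and Tnfsf11 -3.09 ± 0.60. In Nr4a3 and Tnfsf11 the MCC CD69-hi level had not risen from 1 h to 6 h, and the NP level was lower at 6 h. The feedback genes Spry1 and Dusp4 gave -3.51 ± 1.08 and -3.16 ± 0.47. The call for Spry1 was not kept with thinned counts, without NP 1 h replicate 1 or without NP 6 h replicate 1. The nucleolar genes Nolc1 and Ncl gave -2.66 ± 0.29 and -2.15 ± 0.28, and the amino acid transporter genes Slc7a5 and Slc7a1 -4.75 ± 0.48 and -2.86 ± 0.29. In Il2ra, Cd5, Tfrc, Dusp4, Nolc1, Ncl, Slc7a5 and Slc7a1 MCC CD69-hi was higher and NP lower at 6 h than at 1 h. Tnfaip3, lower than NP at 1 h, gave -2.09 ± 0.41, and its partner gene Tnip1 0.90 ± 0.24.

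Genes of the resting T cell had a positive difference, that is, a smaller fall at 1 h than at 6 h. It was 3.06 ± 0.31 for S1pr1, 2.53 ± 0.45 for Klf2, 2.63 ± 0.28 for Tcf7 and 1.63 ± 0.29 for Gimap3. At 6 h S1pr1 stood -6.13 and Tcf7 -4.25 from NP on the log2 scale. The remaining 20 genes, apart from Egr1, Egr3 and Spry1, kept their call in all 18 alternatives.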

How the results depend on the processing

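Depth limits genes with few reads, since MCC CD69-hi library 2 held 852129 counts. For MCC CD69-hi against NP at 1 h, the B-cell covariate called 2543 genes (989 higher, 1554 lower), thinning the compared libraries to one depth 2833 (1368 and 1465), and a fit of only the 2 groups 3348 (1498 lower). The replicate block called 1651 genes lower, and a fit of only the 1 h libraries 1877. The time test called 3146 genes with thinned counts, 1500 of them smaller at 1 h. MCC+GP CD69-hi against GP gave 3237 calls with the B-cell covariate (1035 higher, 2202 lower), 3869 with thinned counts (1487 higher), 2742 with only the compared groups (1513 higher, 1229 lower), 2193 lower with RLE size factors and 2102 lower with only the compared times. The causes of these shifts were not tested. Some of the settings use fewer samples, reads or tested genes. Fits of only the MCC CD69-hi and NP groups, with or without the block, tested 11042 genes and not 17211. The fit of only the MCC+GP CD69-hi and GP groups tested 10481, and fits of only the 1 h libraries 13050. Counts from these fits are therefore not shares of the same total. Leaving out 1 library at a time gave 3865 to 4245 calls (1657 to 2217 higher, 1954 to 2397 lower) at 1 h, 4229 to 4904 in the time test and 4409 to 5008 with GP. With the B-cell covariate Ighv1-4 was at -0.23 and Cd79a, which is itself part of the covariate, at -0.088. Of 171 named genes called at 1 h, 148 kept direction and call in each alternative that tested them, 14 for all but Egr4 and Plau with 12. The replicate block changed no call among the named genes other than those given beside their results.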
